A study of Homo sapiens with 6 samples.

Results

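The tag-rich shared intervals are the stretches of the genome where both DEK precipitations had a peak that overlapped by at least 1 bp and where the peaks themselves held many sequenced fragments. They were chosen by tag counts, the number of reads that the peak caller counted in a peak: at least 80 tags in the replicate 1 peak and at least 40 tags in the replicate 2 peak. Of the 4453 shared intervals 1121 met both limits, or 25.2%, and 1112 of these lay on chromosomes 1 to 22, X and Y, where 4435 shared intervals lay. A further 718 shared intervals met the limit of replicate 1 alone, 391 that of replicate 2 alone and 2223 neither. The comparison throughout is with the other 3332 shared intervals, 3323 of them on chromosomes 1 to 22, X and Y.

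Chromatin immunoprecipitation followed by sequencing (ChIP-seq) was carried out in U937, an established human monocytic cell line, with no treatment named in the labels. The samples were 2 precipitations with an antibody against DEK, 2 with an antibody against H3K4me3 (histone H3 trimethylated on lysine 4) and 2 samples of non-precipitated chromatin, for which no list was used here. All samples came from the same line, and the 2 samples of each antibody were separate precipitations, which the labels do not tie to separate cultures. With 1 peak list per precipitation no test over samples could be made, so shares are given with a 95% Wilson interval, which covers counting error only, and intervals that neighbour each other are not independent.

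DEK is an abundant chromatin protein of dividing cells that binds DNA with little preference for sequence, can introduce supercoils into DNA and acts as a chaperone of histones; in acute myeloid leukaemia it is found fused to NUP214. H3K4me3 is laid down around active start sites of transcription, and wide H3K4me3 domains are known from genes that define a cell type. PU.1, an ETS-family factor of myeloid cells, binds sites with a GGAA core.

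To show the sequence under these intervals, the 150 bases before a protein-coding start site are given for 3 histone genes and for RPS6KA1, whose start sites lay inside members of high rank. All are on hg19 and read 5′ to 3′ along the strand of the gene. Capitals mark exact matches to 8 words searched on both strands: AGGAAG of PU.1, GGGCGG of SP1, TGTGGT of RUNX1, CACGTG of USF1, CCAAT of NF-Y, TATAAA of the TATA box, TGACTCA of AP-1 and CCGGAAGT of ETS factors, so that a match on the other strand reads as the reverse complement. AGGAAG and CCGGAAGT share the letters GGAAG but cannot match at the same position. The stretches are chr1:149858233-149858382 (minus strand) for H2BC21, chr6:26156407-26156556 (plus) for H1-4, chr6:27100672-27100821 (plus) for H2AC11 and chr1:26869453-26869602 (plus) for RPS6KA1.
H2BC21: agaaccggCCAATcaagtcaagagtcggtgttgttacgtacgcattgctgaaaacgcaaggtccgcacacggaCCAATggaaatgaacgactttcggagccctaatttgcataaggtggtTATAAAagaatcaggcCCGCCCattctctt
H1-4: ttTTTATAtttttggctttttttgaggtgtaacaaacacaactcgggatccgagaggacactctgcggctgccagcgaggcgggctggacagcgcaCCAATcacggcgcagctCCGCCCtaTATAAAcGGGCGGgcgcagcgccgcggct
H2AC11: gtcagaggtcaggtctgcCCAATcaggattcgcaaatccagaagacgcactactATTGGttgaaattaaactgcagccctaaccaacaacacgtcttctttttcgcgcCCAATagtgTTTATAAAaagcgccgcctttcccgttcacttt
RPS6KA1: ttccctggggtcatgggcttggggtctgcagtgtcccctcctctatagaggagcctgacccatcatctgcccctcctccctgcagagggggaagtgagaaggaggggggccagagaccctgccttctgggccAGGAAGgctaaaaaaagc
The 3 histone promoters shown each held a TATAAA that started between 31 and 29 bases before the start site, and at least 1 CCAAT. The promoter of the linker histone gene H1-2, the next histone gene by the same rule, held a CCAAT at 57 bases before the start site and no exact TATAAA. It held the similar stretch tatatata between that CCAAT and the start site, so a TATA box is not shown to be absent. The promoter of RPS6KA1, a kinase of the MAP kinase pathway, held AGGAAG at 18 bases before the start site, while that of SCAF11, which ranked above it, held none of the 8 words. These few promoters thus do not show how common a word was. The intervals behind these promoters had 363 and 226 tags in replicates 1 and 2 at H2BC21, 420 and 166 at H1-4, 343 and 144 at H2AC11 and 438 and 175 at RPS6KA1.

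The tags that chose the members are described first. Replicate 1 tags ranged from 80 to 3940 with a median of 147, and replicate 2 tags from 40 to 3274 with a median of 65. In the other shared intervals the medians were 49 and 25. The members drew on 1016 of the 15017 replicate 1 peaks and on 1114 of the 152779 replicate 2 peaks. These were 6.77% of the peaks and 18.8% of the tags listed for replicate 1, but 0.729% of the peaks and 2.39% of the tags listed for replicate 2. A replicate 1 peak that met its limit was therefore behind a member in 28.1% of cases, and a replicate 2 peak that met its limit in 5.24%. Across the members the tags of both replicates had a Spearman correlation of 0.346, given as a description of intervals whose range the limits restrict.

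**Figure D1:**
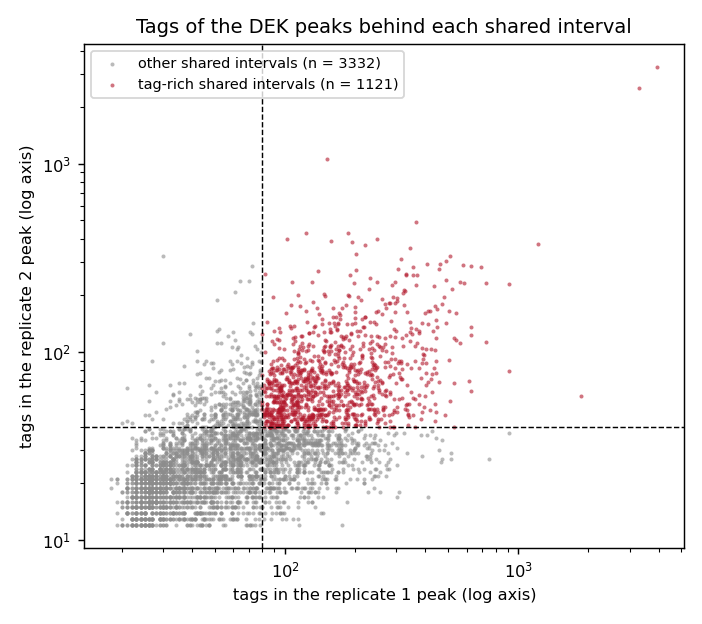
Tags in the replicate 1 peak (x axis, log scale) and in the replicate 2 peak (y axis, log scale) behind each of the 4453 shared intervals. Dashed lines mark the limits of 80 and 40 tags, and the 1121 tag-rich intervals (red) fill the upper right corner without a gap to the 3332 others (grey).

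No gap separated the members from the rest. The members closest to the limits included those near TSTD3 (87 tags in replicate 1 and 40 in replicate 2), near MDFI, which encodes an inhibitor of MyoD-family factors (80 and 124), and near BARHL1, a homeobox gene (125 and 40), with FAM90A18 (80 and 50) and the lncRNA gene ENSG00000290106 (163 and 40). Just outside, with the replicate 1 limit met, were, among others, intervals near SPHK1, a sphingosine kinase (88 and 39), and near the genes ENSG00000260851 (89 and 39), ENSG00000287880 (112 and 39) and ENSG00000288016 (90 and 39). With the replicate 2 limit met, those just outside had 79 replicate 1 tags and lay nearest to HM13-AS1 (88 replicate 2 tags), RPL12P42 (100), RNU6-75P (60), ENSG00000241169 (49) and ENSG00000289278 (113).

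Members were wide. The median width of the shared stretch was 1371 bp (25% to 75% quantile 1039 to 1800 bp) against 625 bp (503 to 792 bp) in the other shared intervals, and none of the latter was wider than 1792 bp. The narrowest stretch was 1 bp in both groups, and 15 members were narrower than 100 bp. At these the peaks barely touched, and the tags are those of the whole peaks. A wider peak can hold more tags, and tag density was therefore also compared. The median density was 66.2 tags per kb of peak in replicate 1 and 40.1 in replicate 2 for members, against 44.5 and 32.0 for the others. The fold enrichment over the local background that MACS gives went the other way, with medians of 5.10 and 3.54 in members and 5.38 and 4.33 in the others. The MACS score, which is the negative log10 of the p-value times 10, had medians of 98.6 and 131 in members and 66.7 and 80.7 in the others. All these measures come from the same peaks as the rule. The false discovery rate listed by MACS was 100% for every replicate 1 peak behind a member and between 0.74% and 16.67% in replicate 2. By this rate no replicate 1 peak behind a member was set apart from the control, which limits how far the shared intervals can be relied on. The cause of the 100% was not tested. These rates were not set beside those of the other shared intervals and cannot be called a trait of the members.

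The highest members by the lower of both tag counts, each taken relative to its limit, were of several kinds. The top 2 lay on the unplaced contig Un_gl000220, with 3940 and 3274 tags and with 3287 and 2526 tags in replicates 1 and 2. Their fold enrichment was low, at 2.15 and 2.22 for the first of these and 2.76 and 3.45 for the other. In all, 9 members lay on contigs, and they entered no comparison of start sites or sequence. Of the 18 other members among the 20 highest, 1 more lay on a contig (Un_gl000225, 368 and 256 tags).

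Several of the highest members lay in sequence where most 24-base words had copies elsewhere, so that reads may be hard to place. The sequenced reads were longer than such words, and how surely they were placed was not examined. The interval near SNORD3B-1, a gene of the U3 snoRNA that is needed for processing of ribosomal RNA, had 577 and 291 tags, and 96.4% of its 24-base words occurred at more than 1 place in the genome. The 3 intervals with their middle between 7443 and 7992 bp before the start sites of NCF1, which encodes the p47 subunit of the phagocyte NADPH oxidase, and of its copies NCF1B and NCF1C had 587 and 232, 724 and 232, and 479 and 196 tags. Between 94.99% and 99.0% of their words were multi-copy. The same held for TAF11L9 (508 and 322 tags, 95.9% multi-copy words) and for H3C15, a gene of core histone H3 (408 and 292 tags, 97.9%). At DUX4L50, a pseudogene copy of DUX4 (1214 and 377 tags), 42.4% of the words were multi-copy.

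The other high members were in sequence that was mostly single-copy. The interval at MIR23A, the start of the microRNA cluster of miR-23a, miR-27a and miR-24, had 630 and 286 tags. It was the widest member at 5699 bp (chr19:13945848-13951546, 23.6% multi-copy words). Its middle lay 1224 bp before the start site of MIR23A, and the interval reached over that site. The interval at LYL1, a helix-loop-helix factor of blood cells, had 518 and 216 tags over 4340 bp. The interval inside VSIR, the gene of the immune checkpoint receptor VISTA, had 563 and 235 tags with its middle 7696 bp after the nearest start site. At SCAF11, an SR-related factor that interacts with RNA polymerase II, the interval had 694 and 284 tags, and at the lncRNA gene LINC00938 it had 914 and 230 tags. WIPI2, an autophagy gene, had intervals of 5313 bp and 116 bp with 490 tags each in replicate 1, since both came from the same replicate 1 peak, and 240 and 303 tags in replicate 2. SH3TC1 had 462 and 293 tags, and the remaining intervals lay nearest to ENSG00000285163 (459 and 276) and ENSG00000278865 (436 and 224).

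Beside MIR23A and WIPI2, the widest members were at ZC3H12A, which encodes the mRNA-degrading Regnase-1 (5543 bp), AP3D1, a subunit of the AP-3 adaptor of lysosomal sorting (5126 bp), and CD93, a receptor of myeloid and endothelial cells (4951 bp). Their tags in replicates 1 and 2 were 315 and 311, 324 and 213, and 355 and 256. The densest members were those on Un_gl000220 and at SNORD3B-1, LINC00938 and TAF11L9. At LINC00938 the density was 198 tags per kb in replicate 1 and 117 in replicate 2.

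The ratio of replicate 1 to replicate 2 tags was largest near ENSG00000290936. It had 1861 tags in replicate 1 and 58 in replicate 2, and those near SNORD3A (531 and 40), ARID2, a subunit of a SWI/SNF complex (914 and 79), RNU1-1, a gene of the U1 snRNA (438 and 43), and on Un_gl000232 (483 and 46) followed. The ratio was smallest near ENSG00000275888 (151 and 1055 tags), ENSG00000267379 (102 and 397), NUDT1, an enzyme that removes oxidized nucleotides (123 and 431), TTYH3 (82 and 259) and SH3BP2 (157 and 389). Members that came from the same replicate 1 peak as another member numbered 202, and their replicate 1 tags are thus counted more than once. The intervals at ARID2 and LINC00938, for example, came from the same replicate 1 peak of 914 tags. Tags are those of whole peaks and not of the shared stretch. A wide peak in one list that meets a small peak in the other thus gives an uneven ratio.

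The distance to transcription start sites (TSSs), which the rule did not use, was calculated from the middle of each interval to the nearest start of any annotated transcript. The middle of 414 of 1112 members lay within 1 kb of a TSS, or 37.2% (95% Wilson interval 34.4% to 40.1%). In the other shared intervals it was 747 of 3323, or 22.5% (21.1% to 23.9%), and in all shared intervals 26.2%. The median distance was 2410 bp in members and 6152 bp in the others. Within 100 bp of a TSS lay 12.2% of members and 6.83% of the others, and farther than 50 kb lay 2.43% and 6.80%. The intervals that contained a TSS were 33.6% of members and 13.4% of the others, but members are wider, and this measure depends on width. The share in no annotated gene did not follow the same pattern, with 27.2% of members and 27.9% of the others.

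The start sites at members were mostly those of protein-coding genes. Within 1 kb of a member lay start sites of 535 genes, of which 345 were protein-coding, 151 encoded lncRNAs and 6 encoded microRNAs. Of all 20136 protein-coding gene names the 345 made up 1.71%. Of the 414 members within 1 kb of a TSS 313 lay within 1 kb of a coding one, and of the 747 such other shared intervals 549, which are similar shares. At 33 of these 313 members coding genes started on both strands, a count that was not set beside that of the other shared intervals. Most distant from any TSS were 4 members between 123094 and 128205 bp from ENSG00000238031 on chromosome 3, all from 1 replicate 1 peak of 333 tags, and 1 member 124655 bp from LINC00430 on chromosome 13 (195 and 100 tags). None of these 5 had H3K4me3.

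H3K4me3 was measured in the same cells with another antibody and took no part in the choice of members. The lists held 47523 regions in replicate 1 and 29335 in replicate 2, which covered 2.77% and 1.83% of chromosomes 1 to 22, X and Y. A stretch listed in both replicates overlapped 608 of 1112 members, or 54.7% (51.7% to 57.6%), but 885 of 3323 other shared intervals, or 26.6% (25.2% to 28.2%), with 33.7% over all shared intervals. Each H3K4me3 list on its own gave the same order, with 79.7% against 39.9% in replicate 1 and 54.9% against 27.1% in replicate 2. Members without H3K4me3 in either list made up 20.1%, and other shared intervals without it 59.6%.

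Members and other shared intervals differed both near and away from start sites. Within 1 kb of a TSS 341 of 414 members had H3K4me3 in both lists, or 82.4% (78.4% to 85.7%), against 64.3% (60.8% to 67.6%) of the 747 others. Over 1 kb from a TSS it was 267 of 698 members, or 38.3% (34.7% to 41.9%), against 405 of 2576 others, or 15.7% (14.4% to 17.2%). The H3K4me3 regions that met members were also wider, with a median of 2946 bp in replicate 1 and 2935 bp in replicate 2, than those that met the other shared intervals (2321 and 2352 bp) and than all regions of the lists (1480 and 1651 bp). A wider region is more likely to meet an interval, and the part of this in the widths was not tested.

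Neither share changed abruptly at the tag limits. When the shared intervals were ordered by the lower of both tag counts relative to its limit, 10.0% (8.34% to 12.02%) of the 1027 intervals below 0.4 of a limit had H3K4me3 in both lists, and this rose over the next bins to 47.9% (43.5% to 52.3%) of the 489 intervals from 0.8 to 1. The members from 1 to 1.25 had 50.1% (45.2% to 55.02%) and those from 2.5 to 4 had 66.7% (56.6% to 75.4%). The share within 1 kb of a TSS was 13.6% in the lowest bin, 38.0% just below the limits and 35.5% just above them, and between 35.4% and 46.2% in the bins beyond. The Wilson intervals of the bins on either side of the limits overlapped for both shares.

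**Figure D2:**
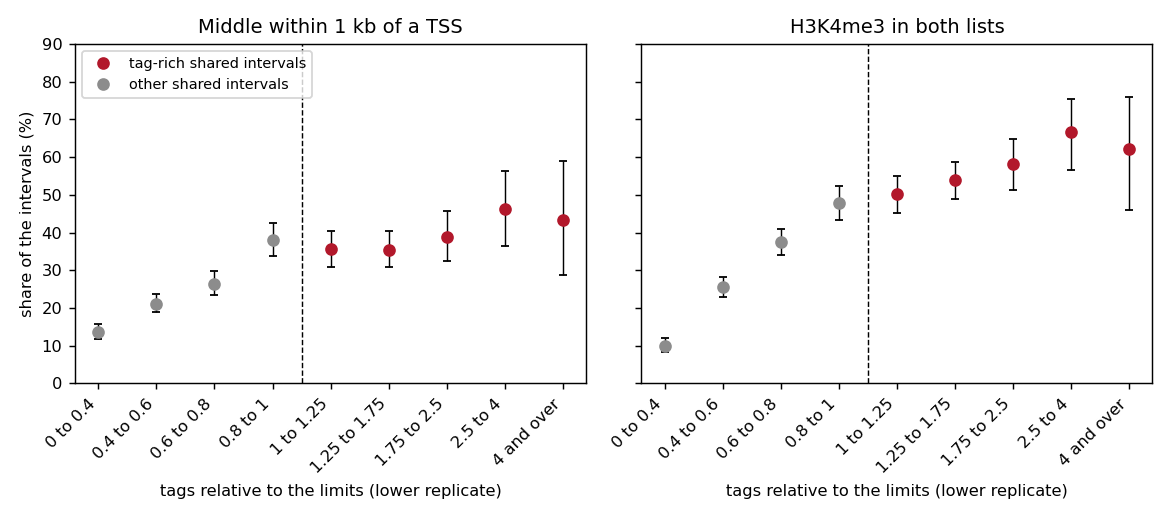
Share of shared intervals (y axis, %) with the middle within 1 kb of a TSS (left) and with H3K4me3 in both lists (right), by tags relative to the limits in the replicate where this is lower (x axis). Points are shares with 95% Wilson intervals, the dashed line marks the limits, and both shares rise up to the limits, from 13.6% to 38.0% and from 10.0% to 47.9%, with smaller differences among the tag-rich bins.

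Since members were wider, the same shares were compared among intervals of like width. Among intervals of 600 to 1000 bp, 29.1% (22.9% to 36.3%) of 175 members and 23.4% (21.3% to 25.6%) of 1518 others lay within 1 kb of a TSS, and among those of 1000 to 1500 bp 39.7% (35.1% to 44.4%) of 416 and 34.8% (29.6% to 40.4%) of 293. The Wilson intervals overlapped in each of the 4 width bins that held both kinds. H3K4me3 differed within the bins as well. It was present in both lists at 51.4% (44.1% to 58.7%) against 28.9% (26.7% to 31.3%) from 600 to 1000 bp, and at 55.8% (51.0% to 60.5%) against 36.9% (31.5% to 42.5%) from 1000 to 1500 bp. Up to 600 bp it was 33.8% (24.1% to 45.1%) against 22.1% (20.1% to 24.3%), and from 1500 to 2000 bp, where only 19 others were left, 56.1% (49.97% to 62.1%) against 42.1% (23.1% to 63.7%). For start sites that bin ran the other way, with 41.1% (35.2% to 47.3%) of members against 52.6% (31.7% to 72.7%) of the 19 others. In the 3 bins up to 1500 bp the shares near start sites thus lay closer together than over all widths, and those of H3K4me3 lay apart up to 1500 bp except for the narrowest intervals, where the Wilson intervals overlapped slightly.

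**Figure D3:**
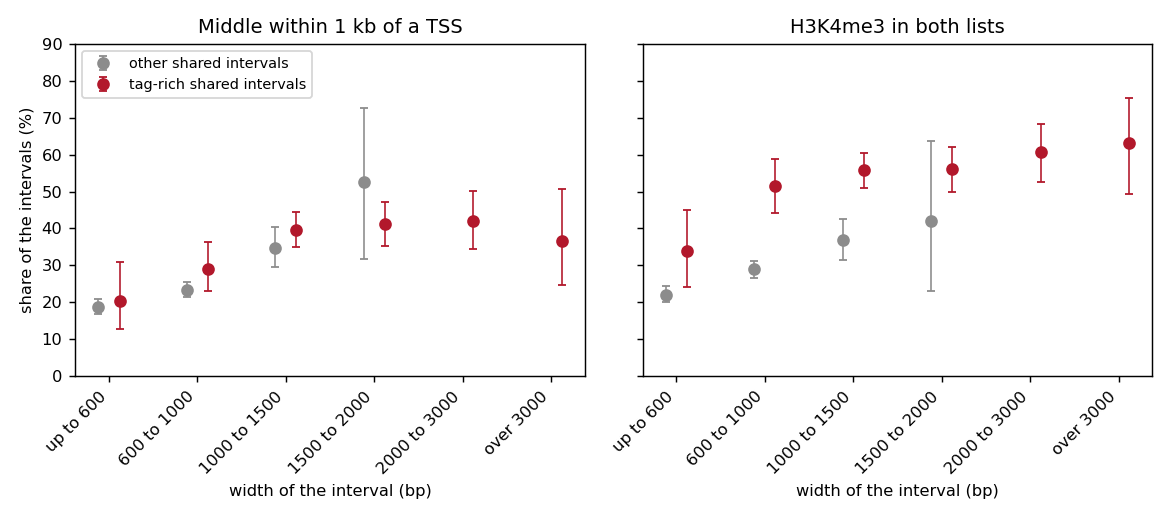
The same shares (y axis, %) by the width of the interval in bp (x axis) for tag-rich (red) and other shared intervals (grey), with 95% Wilson intervals. From 1000 to 1500 bp the red and grey points stand at 39.7% and 34.8% for start sites and at 55.8% and 36.9% for H3K4me3. From 1500 to 2000 bp, with 19 other intervals, they stand at 41.1% and 52.6% for start sites, and no other shared interval was wider than 2000 bp.

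Sequence copy number also differed between the groups. In 153 members, or 13.8% (11.9% to 15.9%), at least 50% of the 24-base words occurred at more than 1 place in the genome, against 29.8% (28.2% to 31.3%) of the other shared intervals. Among the intervals below this mark 57.6% of 959 members and 33.3% of 2334 others had H3K4me3 in both lists, and 39.7% and 27.6% lay within 1 kb of a TSS. Intervals shorter than 24 bp or of undetermined bases hold no such word and were counted below the mark. Among those above it the shares were 36.6% of 153 and 10.8% of 989 for H3K4me3.

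Of the 20 highest members, those without H3K4me3 in either list were on contigs. The 5 highest members without H3K4me3 were the intervals on Un_gl000220 (3940 and 3274 tags) and Un_gl000225, followed by DNM1P47, a pseudogene (365 and 489 tags), FAM90A12P (353 and 282) and the pseudogene ENSG00000251158 (448 and 170). The last 3 had between 85.9% and 99.7% multi-copy words.

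Core histone genes, which encode the proteins of the nucleosome, had the highest share of genes at members among the 14 gene lists. Of 61 core histone genes 29, or 47.5%, had a member within 1 kb of a TSS, where 1.71% of all protein-coding genes had a member, and another shared interval alone lay at a further 9. The 29 genes shared 21 intervals, since several histone genes start close to each other. All 21 had H3K4me3 in both lists. By tags in replicates 1 and 2 the highest outside a duplicated block of chromosome 1 were H2BC21 with H2AC20 (363 and 226), H2AC17, H2BC17 and H3C12 (322 and 178), H2AC11 with H2BC11 (343 and 144), H2AC12 with H2BC12 (282 and 183) and H4C8 (281 and 121). They were followed by H2AC13 with H2BC13 (220 and 154), H3C2 (269 and 88), H2AC7 (168 and 84), H2AC14 with H2BC14 (164 and 113), H3C4 (153 and 101) and H3C10 (147 and 101). H4C11, H3C1 with H4C1, H4C12, H2BC5, H4C4 and H4C9 had between 46 and 76 tags in replicate 2. H3C15, H3C14 (331 and 260), H4C14 (135 and 59) and H4C15 (129 and 66) lie in that block, where 97.9% to 100% of the words were multi-copy.

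The linker histone genes had 2 of 10 at members, H1-4 (420 and 166 tags) and H1-2 (233 and 99), and the interval of H1-4 shared its replicate 1 peak with that of H2BC5. Of 8 replication-independent histone variant genes 1 had a member, H3-3B, a gene of histone H3.3 (134 and 65). Of all protein-coding genes 1.71% had a member, and of those with H3K4me3 at a TSS in both lists 2.97%. Lists of 10 and 8 genes are too small to be placed against these shares. The promoters printed above for H2BC21, H1-4 and H2AC11 are of this group.

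**Figure D4:**
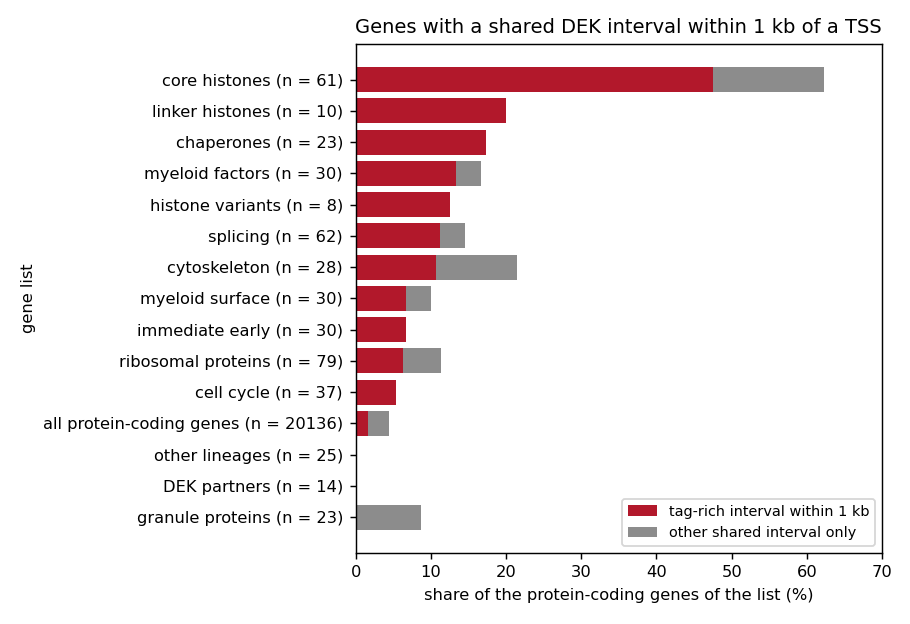
Share of the protein-coding genes of each list (x axis, %) with a tag-rich interval (red) or only another shared interval (grey) within 1 kb of a TSS. Core histone genes stand at 47.5% and all protein-coding genes at 1.71%, while no gene of the DEK partners, granule proteins or other lineages had a tag-rich interval.

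Housekeeping gene groups had lower shares than the core histones, and they are set beside the level of genes with H3K4me3 at a TSS in both lists, of which 2.97% (330 of 11100) had a member. Among chaperones and ubiquitin genes 4 of 23 had one, among them HSPA8, the constitutive HSP70 (190 and 82 tags), DNAJB1, an HSP40 co-chaperone (410 and 69), and HSPH1, an HSP110 (146 and 40). Splicing factors had 7 of 62, namely HNRNPA2B1 (316 and 119 tags), TRA2B (333 and 164), HNRNPM (342 and 357), SNRPC (262 and 106, with a neighbouring interval of 262 and 51), SRSF5 (199 and 61), SF3A3 (156 and 127) and SF3B5 (124 and 72). The interval at HNRNPM was 4705 bp wide and had H3K4me3 in replicate 1 only. Of 28 genes of the cytoskeleton and lamina 3 had a member: TMSB4X, which encodes the actin-binding thymosin beta 4 (128 and 56), LMNA, the gene of lamin A (98 and 45), and TPM4, a tropomyosin gene (99 and 49). Ribosomal protein genes had 5 of 79, RPS29 (170 and 93), RPS6 (148 and 70), RPS12 (107 and 48), RPS14 (95 and 77) and RPL27A (94 and 50), and 79 of 79 had H3K4me3 at a TSS in both lists.

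Of 30 myeloid transcription factors 4, or 13.3%, had a member within 1 kb of a TSS, against the 1.71% of all protein-coding genes and the 2.97% of those with H3K4me3: IRF5, an interferon regulatory factor (200 and 142 tags), MYB, a factor of progenitor growth (155 and 68), ID2, an inhibitor of helix-loop-helix factors (137 and 73), and ELF1, an ETS factor (120 and 44). Of 30 immediate-early genes 2 had a member, ZFP36 (190 and 65) and ZFP36L2 (375 and 82), both of which encode proteins that bind AU-rich mRNAs and lead to their decay. Of 37 cell cycle genes 2 had a member, the kinase gene CDK6 (157 and 55) and the kinase inhibitor gene CDKN2C (182 and 48). Of 30 surface and signalling genes of myeloid cells it was LAPTM5, a lysosomal protein of blood cells (287 and 99 tags), and PTPN6, which encodes the phosphatase SHP-1 (155 and 143). At LAPTM5 the fold enrichment was 20.4 in replicate 1 and 5.86 in replicate 2. None of 23 granule protein genes and none of the 14 genes of DEK and its partners had a member, and 12 and 14 of them had H3K4me3 at a TSS in both lists. At the 2.97% of genes with H3K4me3, lists of this size cannot be told apart from the background by a count of 0.

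The label of the cells was checked with the same lists. H3K4me3 lay at a TSS in both lists for 27 of 30 myeloid transcription factors and 23 of 30 myeloid surface and signalling genes. Of the granule protein genes, also a myeloid list, it was 12 of 23, or 52.2%. Among all protein-coding genes the share was 55.1% (11100 of 20136), so the granule list did not stand out. Among lists tied to no lineage the share ran from 60% of linker histone genes to 100% of ribosomal protein genes. The myeloid shares alone thus do not mark the lineage. Of 25 genes of other cell types 2 had H3K4me3 at a TSS in both lists. None of these 25 had a shared DEK interval within 1 kb of a TSS. Of all protein-coding genes 1.71% had a member there and 2.68% another shared interval alone, so that a count of 0 among 25 genes is near the background.

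The share of shared intervals that were tag-rich differed between chromosomes. On chromosome 19 it was 108 of 187, or 57.8% (50.6% to 64.6%), and on the other chromosomes together 1004 of 4248, or 23.6% (22.4% to 24.9%). Next came chromosome 16 with 33.1% (25.7% to 41.5%) and chromosome 17 with 31.5% (25.4% to 38.3%). Low values were found on chromosome 2 with 15.4% (11.7% to 20.02%) and chromosome 5 with 15.5% (11.2% to 21.1%). With fewer shared intervals, chromosome 22 had 8 of 61, or 13.1% (6.80% to 23.8%), and chromosome X 9 of 59, or 15.25% (8.24% to 26.5%). Per Mb, chromosome 19 had 1.83 members and 3.16 shared intervals, and chromosome 17 had 0.764 and 2.43. In both lists peaks of chromosome 19 more often met the limit, at 51.1% (45.2% to 56.9%) of 278 against 23.5% of the other chromosomes' 14652 peaks in replicate 1 and at 32.4% (31.4% to 33.4%) of 8163 against 12.8% of 144174 in replicate 2. The median tags of all peaks there were 84 and 29.

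**Figure D5:**
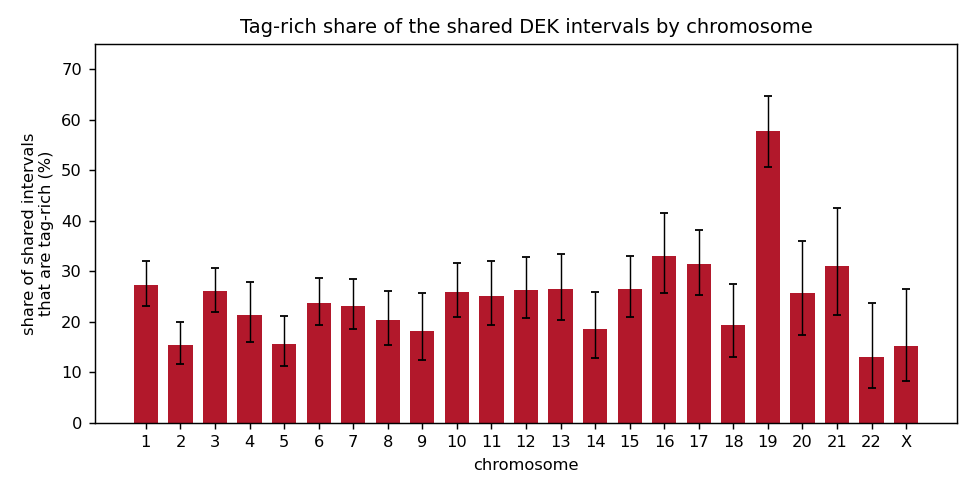
Share of the shared DEK intervals that were tag-rich (y axis, %) on each chromosome with at least 10 shared intervals (x axis), with 95% Wilson intervals as error bars. Chromosome 19 stands at 57.8%, and the other chromosomes lie between 13.1% and 33.1%.

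Width differed on chromosome 19 as well, where 50.8% of shared intervals were wider than 1000 bp against 25.4% elsewhere. The share of members was higher at both widths, with 22.8% (15.4% to 32.4%) against 7.20% (6.35% to 8.15%) up to 1000 bp and 91.6% (84.2% to 95.7%) against 71.9% (69.1% to 74.5%) above it. By contrast, members of chromosome 19 were like members elsewhere in their surroundings: 35.2% (26.8% to 44.6%) against 37.5% (34.5% to 40.5%) lay within 1 kb of a TSS and 55.6% (46.1% to 64.6%) against 54.6% (51.5% to 57.6%) had H3K4me3 in both lists. For the other shared intervals the shares were 31.65% on chromosome 19 and 22.3% elsewhere near a TSS, and 36.7% and 26.4% for H3K4me3. At start sites members thus differed less from the others on chromosome 19. Of its 108 members, 61 lay in the first 20 Mb, which was not set beside the place of all shared intervals of this chromosome.

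Of 1112 members 536, or 48.2%, had the middle of another within 100 kb, some of them because 1 replicate 1 peak met several replicate 2 peaks. The share was not set beside that of other shared intervals, and it is given as a description. Runs of 5 or more members with gaps of up to 100 kb numbered 18. The longest held 10 members and ran from an interval nearest to ENSG00000257657 past LINC00938 and ARID2 to SCAF11 (chr12:46048064-46386209), with H3K4me3 in both lists at 3 of them. The next held 9 members from LINC02580 to ZFP36L2 (chr2:43333996-43455506), with H3K4me3 in both lists at 6. Runs of 8 and 7 members lay in the histone gene cluster of chromosome 6, where H3K4me3 was present in both lists at all 8 and all 7. The run of 7 members at C10orf105, VSIR and CDH23 (chr10:73488885-73558363) had no TSS within 1 kb and H3K4me3 in both lists at 2, and the run of 6 members at RASA3, the gene of a GTPase-activating protein, had no TSS within 1 kb and H3K4me3 in both lists at 4.

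Sequence was compared in windows that reached 150 bp to either side of the middle. The median GC content was 57.1% in members and 52.8% in the other shared intervals, and the median number of CpG dinucleotides was 9 in both. Within 1 kb of a TSS the median CpG count was 18 in members and 13 in the others, and over 1 kb from a TSS it was 7 and 8.

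The word AGGAAG of PU.1 was present in 39.1% (36.3% to 42.02%) of members, 24.3% (22.8% to 25.7%) of the others and 28.0% of all shared intervals. The shares differed away from start sites. Within 1 kb of a TSS the share was 35.3% (30.8% to 39.98%) in members and 34.5% (31.2% to 38.0%) in the others, while over 1 kb from a TSS it was 41.4% (37.8% to 45.1%) and 21.3% (19.7% to 22.9%). Among the latter in mostly single-copy sequence it was 45.8% (41.8% to 49.9%) of 578 and 28.4% (26.3% to 30.6%) of 1689. GC content moved with the word, and its part in the difference was not tested. In 4 bins of GC content, the lowest and highest of them broad, the shares in members and others were 31.4% against 21.3% below 50% GC, 36.0% against 24.6% from 50% to 55%, 49.4% against 37.5% from 55% to 60% and 61.5% against 47.3% from 60% upward. The Wilson intervals touched from 50% to 55% GC (28.4% to 44.4% against 21.1% to 28.4%) and overlapped in the other 3 bins. With H3K4me3 in both lists the shares in single-copy sequence over 1 kb from a TSS were 52.6% (46.2% to 58.9%) of 232 members and 38.99% (33.9% to 44.3%) of 336 others, and without it 41.3% (36.3% to 46.6%) and 25.8% (23.5% to 28.2%). A word of the same letters in another order, GAAAGG, chosen after these values were seen, was found in 23.01% (19.8% to 26.6%) and 16.0% (14.3% to 17.8%) of the same single-copy intervals. Within 1 kb of a TSS GAAAGG was found in 26.1% (22.1% to 30.5%) of members and 17.9% (15.3% to 20.9%) of the others, so that this word differed there and AGGAAG did not differ beyond its Wilson intervals.

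The middle of 2 members of high rank over 5 kb from a TSS, with H3K4me3 in both lists and AGGAAG close to the middle, is given below on the plus strand of hg19, with the same words in capitals. They are chr6:160241814-160241964 (member of 246 and 163 tags, nearest TSS that of PNLDC1) and chr4:6894567-6894717 (297 and 120 tags, nearest TSS that of TBC1D14).
PNLDC1: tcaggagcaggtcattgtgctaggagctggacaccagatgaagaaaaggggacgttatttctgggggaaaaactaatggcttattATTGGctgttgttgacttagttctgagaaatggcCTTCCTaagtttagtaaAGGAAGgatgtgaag
TBC1D14: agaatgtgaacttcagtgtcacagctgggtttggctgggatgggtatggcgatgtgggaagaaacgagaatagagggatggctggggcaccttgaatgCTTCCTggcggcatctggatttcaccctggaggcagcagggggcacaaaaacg
They were picked because they hold the word and thus say nothing of how common it is.

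CCGGAAGT of ETS factors was rare, but its share in members relative to that in the others was higher than for AGGAAG. It was found in 2.34% (1.60% to 3.40%) of members and 0.843% (0.584% to 1.22%) of the others (1.22% of all shared intervals), and over 1 kb from a TSS in 7 of 698 members and 2 of 2576 others. Of the 54 shared intervals with it 45 lay within 1 kb of a TSS. There the shares were 4.59% (2.96% to 7.06%) of members and 3.48% (2.39% to 5.05%) of the others, with overlapping Wilson intervals. GGGCGG of SP1 was present in 26.5% (24.02% to 29.2%) and 22.7% (21.3% to 24.1%), with 23.6% of all shared intervals. Within 1 kb of a TSS GGGCGG was present in 43.7% (39.02% to 48.5%) of members and 35.1% (31.7% to 38.6%) of the others, and over 1 kb from a TSS in 16.3% (13.8% to 19.3%) and 19.1% (17.6% to 20.6%). TGACTCA of AP-1 was present in 6.65% (5.33% to 8.27%) and 4.94% (4.25% to 5.72%), with 5.37% of all shared intervals. TATAAA was less common in members, at 7.73% (6.31% to 9.45%) against 12.4% (11.3% to 13.6%), with 11.2% of all shared intervals. Within 1 kb of a TSS the TATAAA shares were 6.28% (4.32% to 9.04%) and 7.497% (5.82% to 9.61%), with overlapping Wilson intervals. The difference lay over 1 kb from a TSS, with 8.596% (6.74% to 10.91%) of members and 13.8% (12.5% to 15.2%) of the others. The part of GC content in it was not tested. For TGTGGT of RUNX1 (22.2% and 22%), CACGTG of USF1 (6.12% and 5.51%) and CCAAT of NF-Y (22.03% and 20.8%) the Wilson intervals overlapped almost wholly. These words were present in 22.1%, 5.66% and 21.1% of all shared intervals.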

How the data were processed

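DEK and H3K4me3 ChIP-seq peak lists of U937 cells, 2 replicates each, were used. Per the labels and methods the reads were aligned to hg19 with Bowtie2, and the authors called DEK peaks with MACS 1.4.1 in each precipitation, with non-precipitated chromatin as control. The deposited DEK lists give a count of tags, a score (the negative log10 of the p-value times 10), a fold enrichment (ratio) and a false discovery rate in percent for each peak, none rescaled between replicates. The deposited H3K4me3 lists give positions only, so neither strength nor depth is known. The exact sequencing depth of each sample is unknown here, and a list's length moves with it.

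The lists were intersected at 1 bp or more, and distances, H3K4me3 and 24-base words at more than 1 place in GRCh37, whose chromosomes match hg19, were added with GENCODE release 44 mapped to that build. H3K4me3 means a stretch covered in both lists. The reference is not soft-masked, so the share of repeat bases was replaced by word copies. Scripts used Python 3.11.15, pandas 2.3.3, NumPy 2.4.6, SciPy 1.17.1, Numba 0.67.0, samtools 1.23.1 and Matplotlib 3.10.9 and passed 23 of 23 checks on simulated data.

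Members, gene lists and words were chosen with earlier results of these data known. Named were the 20 highest members by the lower of tags relative to the limits, the 5 just inside and just outside on each limit, the 5 widest, densest, farthest from a TSS, most uneven in either direction and highest without H3K4me3, list genes at a member, and, chosen after their values were seen, the genes of the longest runs. Printed promoters are those of the highest-ranked members with under 25% multi-copy words and no exon in the 150 bases. Some genes and sequences that these rules select are not reported here. No test was run: regions are not replicates. Alternatives were other tag limits, overlaps, scores, windows, gene sets, selection by density and each replicate alone.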

Additional observations from a re-analysis of the deposited data

How the results depend on the processing

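The number of members moved from 1121 to 487 with limits of 120 and 60 tags, to 1775 with 60 and 30, to 697 with an overlap of 50% of each DEK peak and to 369 with a score of 100 or more in both lists; the limit of a single DEK replicate gave 1512 (without replicate 1) to 1839 (without replicate 2). In each of the 12 alternatives for start sites and the 14 for H3K4me3 that also gave a value for the other shared intervals, members had the higher share. The share of members within 1 kb of a TSS moved beyond its Wilson interval with limits of 120 and 60 tags (40.7%), with an overlap of 50% (42.6%), within 2 kb (46.8%), with protein-coding TSSs only (28.1%) and with a TSS inside the interval (33.6%), and was 35.4% to 35.7% without either DEK replicate. The share with H3K4me3 in both lists moved with limits of 120 and 60 tags (59.96%), an overlap of 50% (59.7%), a score of 100 (61.3%), selection by tags per kb (58.0%) and H3K4me3 over 50% of the interval (49.9%). It was 46.9% to 56.4% without either DEK replicate and 54.9% to 79.7% without either H3K4me3 replicate. The cause of these moves was not tested. With a score of 100 or more in both lists, the other shared intervals had 29.5% and 50.6%, against 37.1% and 61.3% of 367 members. Chosen after seeing the data were the wider part of each H3K4me3 list (50.2%), the middle inside H3K4me3 (49.7%), intervals with under 50% multi-copy words and chromosomes other than 19, the last 2 of which moved neither share beyond its Wilson interval. Of the 1121 intervals selected by tags per kb, 687 were also members. The stronger part of each H3K4me3 list could not be used, since the lists give no strength. No paired analysis was possible because no result came from a test. With 1 list per precipitation the spread between replicates could not be estimated, and precision is limited by an unknown depth.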
